A study of Mus musculus with 8 samples.

Results

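The nuclear-encoded subunits of the mitochondrial respiratory chain and of ATP synthase were examined in mouse ventricles after myocardial infarction (MI). Genes were taken by symbol: those starting with Nduf (without the Ndufaf assembly factors), Uqcr, Atp5 or Cox4 to Cox8, together with Sdha, Sdhb, Sdhc, Sdhd, Cyc1 and Cycs. The rule found 87 genes, and 86 of them had a probe that was well above background on 4 or more of the 8 arrays, out of 15156 named genes with such a probe. The gene left out, Cox8c, was not well above background. The rule itself used no expression difference between the groups, but it was chosen with earlier results of these data known.

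Total RNA came from the ventricles of male C57BL\6 mice 24 h after surgery, with 1 array per mouse and 1 colour. MI was induced in 4 mice by permanent ligation of the anterior interventricular artery, and 4 mice had a sham operation. Both groups were operated on under isoflurane. Per the study's methods, all 8 mice were also imaged by positron emission tomography with labelled glucose (FDG-PET) 24 h after surgery, under isoflurane and after Acipimox, an inhibitor of lipolysis. No transgene is named for either group. The whole ventricles were used, so that a value mixes infarcted and surviving tissue, and fewer cells of a type and less RNA per cell cannot be told apart.

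The respiratory chain moves electrons from NADH and succinate to oxygen in the inner mitochondrial membrane. Complex I oxidizes NADH, complex II oxidizes succinate, complex III passes the electrons to cytochrome c, and complex IV reduces oxygen to water. The proton gradient that complexes I, III and IV build up drives ATP synthase, also called complex V. The heart depends on this pathway for most of its ATP, and its cardiomyocytes are densely packed with mitochondria. The 13 subunits encoded by mitochondrial DNA were not analysed here.

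Levels are given as log2 signals normalized with spike-in RNA, which was added to each sample before labeling, and a fold change is the log2 level in MI mice minus that in sham-operated mice. On a second scale, each array was in addition centred on its median probe, so that a value is relative to the other transcripts of the same mouse. Each gene is represented by its brightest probe, and signals of different genes are not read as relative amounts of RNA. Sham replicate 1 stood apart from its group, since 65.8% of its spots were well above background and 58.6% to 59.1% in the other sham-operated mice. The MI mice had 61.4% to 66.4%, so that sham replicate 1 lay within their range. Results that rest on sham replicate 1 are given with and without it, and leaving it out takes away the sham-operated mouse most like the MI mice in this measure. No probe of the 86 genes was saturated on any array.

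Promoter sequences from RefSeq were available for 70 of the 86 genes (75 promoters of 300 bases, 250 before and 50 after the start of the gene, build GRCm38.p6). They are shown because the subunits lie on many chromosomes yet are needed together, and nuclear respiratory factor 1 (NRF1) is a known activator of such genes. The core GCATGCG of the NRF1 motif was found on either strand in 12 of the 75 promoters (16%) and in 3.58% of all 32851 promoters of the same length. The stretches of 5 genes that are described mouse by mouse are printed here, with every match in capitals. In 4 of them the matches on both strands overlap.
Sdhb, chr4:140961177-140961263, plus strand: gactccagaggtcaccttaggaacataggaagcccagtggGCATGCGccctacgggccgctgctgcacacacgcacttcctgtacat
Cycs, chr6:50566583-50566670, minus strand: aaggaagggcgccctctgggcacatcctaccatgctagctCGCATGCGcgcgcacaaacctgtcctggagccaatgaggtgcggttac
Cox6a1, chr5:115349072-115349159, minus strand: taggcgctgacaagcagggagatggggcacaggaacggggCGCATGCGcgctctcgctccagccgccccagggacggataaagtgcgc
Atp5g2, chr15:102671041-102671128, minus strand: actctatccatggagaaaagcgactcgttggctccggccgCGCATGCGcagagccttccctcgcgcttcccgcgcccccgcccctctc
Uqcrc1, chr9:108936668-108936697, plus strand: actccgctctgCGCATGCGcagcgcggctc

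Further motifs were searched on both strands. AAGATGG, the core of the motif of the factor YY1, was found in 14.7% of the 75 promoters and 6.34% of all promoters. Ndufs4, the complex I gene with the lowest log2 fold change, holds it shortly after its start, as shown in capitals, and AAGGTCA, the half-site of the estrogen-related receptors (ERR), lies before the start of the c-ring gene Atp5g3 on the opposite strand.
Ndufs4, chr13:114388045-114388070, minus strand: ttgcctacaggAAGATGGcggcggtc
Atp5g3, chr2:73911332-73911418, minus strand: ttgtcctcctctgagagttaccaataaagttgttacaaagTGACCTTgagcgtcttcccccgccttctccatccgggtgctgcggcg

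AAGGTCA was found in 10.7% of the 75 promoters and 4.72% of all promoters, CCGGAAG of the factor GABP in 22.7% and 8.86%, and TATAAA in 12% and 13.6%. The median log2 fold change was -0.18 for the 12 genes with the NRF1 core, -0.16 for the 11 genes with the YY1 core, -0.21 for the 8 genes with the ERR half-site and -0.20 for the 17 genes with the GABP motif. It was between -0.18 and -0.20 for the genes without each motif. These matches describe the letters in the windows.

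The subunits as a group were slightly lower in MI mice, by an amount that the spike-in scale did not separate from the spread between mice. The mean level was lower in MI mice for 78 of the 86 genes, and this was so for 35.3% of all 34038 probes. The median log2 fold change of the genes was -0.18, which is 88.1% of the sham level, and that of all probes was 0.03. The probes used as background and for centring are mostly far dimmer than the genes. The median log2 signal on an array was 8.47 to 8.84 for all probes and 16.70 to 17.39 for the genes. At dim probes the additive constant of each array in the model (166 to 257) makes up more of the value and shrinks log2 fold changes. Single genes ranged from -0.38 for Cox7a2l to 0.27 for Atp5d. None passed an adjusted p of 0.05 in limma in either direction or with a fold over 2, at a background of 0.355% of probes called lower, 3.38% called higher and 0.978% called past both thresholds. At an unadjusted p under 0.05, 13 genes were lower and 0 higher, and 4.35% of all probes were lower. The smallest adjusted p was 0.167, for Ndufa1. Significance analysis of microarrays and an unmoderated test also called 0 genes lower.

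The precision of single genes allowed small changes only. On the spike-in scale, the 95% confidence interval of each of the 86 genes lay within 2-fold in both directions. The lowest bound was -0.71 (Cox7a2l) and the highest 0.65 (Uqcrc1). For the dim Cox7b2, with log2 signals of 7.77 to 7.94, that precision rests in part on the additive constant. With 75th percentile scaling, which adds no constant, its log2 fold change was -0.89 ± 0.30 (SE). The median standard error was 0.13. The groups did not overlap for 1 gene, Atp5c1, which was lower in MI mice, at a background of 2.39% of probes.

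The spread between mice was shared by most of the genes. On the spike-in scale, the median level of the 86 genes was 17.16, 16.70, 17.11 and 16.92 in MI replicates 1 to 4, and 17.06, 17.06, 17.39 and 17.24 in sham replicates 1 to 4. MI replicate 2 was the lowest of the 8 mice for 81 genes, and sham replicate 3 was the highest for 67. The groups overlapped, with MI replicate 1 and MI replicate 3 above sham replicates 1 and 2. The median log2 fold change was -0.09 without MI replicate 2, -0.11 without sham replicate 3 and -0.22 without sham replicate 1. It lay between -0.26 and -0.15 without each of the other mice, and 0 genes were called lower with any mouse left out.

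On the centred scale, more of the subunits were called lower in MI mice. Centring shifted the log2 fold change of each of the 86 genes by the same amount, and the median of all probes by nearly as much. The shares of genes and of probes with a lower mean rose with that shift. The median standard error of the genes was 0.13 on the spike-in scale and 0.10 after centring. After each array was centred on its median probe, 82 of the 86 genes had the lower mean in MI mice (66% of all probes), and the median log2 fold change was -0.26 (83.2% of the sham level), against -0.05 for all probes. Of the 86 genes, 20 were called lower (23.3%) and 0 higher, at a background of 7.58% of probes called lower and 7.3% called higher. The groups did not overlap for 12 genes, all lower in MI mice, at a background of 9.07%. No gene passed 2-fold, at a background of 0.899%. At an unadjusted p under 0.05, 61 genes were lower (15.1% of all probes were). For all probes, 1150 were called higher and 121 lower on the spike-in scale, and 2486 higher and 2579 lower after centring.

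On the centred scale, sham replicate 1 lay with the MI mice. The median level of the 86 genes was 17.02, 16.87, 16.94 and 16.89 in MI replicates 1 to 4, and 17.00, 17.27, 17.33 and 17.32 in sham replicates 1 to 4. Without sham replicate 1, 54 genes were called lower (62.8%), at a background of 8.19% of probes, and these included all 20 called with it. With any other mouse left out, between 4 and 23 genes were called lower, and between 1254 and 2669 of the 34038 probes. The calls lost were largest without sham replicate 3, when 4 genes and 1563 probes were left. In that case the share of the genes was close to that of all probes. Atp5c1, Cox7a2l, Ndufa1 and Ndufb3 were called lower with each of the 8 mice left out in turn.

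Other scalings gave counts between these. Of the 86 genes, 6 were called lower with 75th percentile scaling (6.98%, background 8.84%), a smaller share than that of all probes. There were 11 after quantile normalization (background 9.27%) and 14 with the normexp background correction (background 11%). With the authors' normalized values 0 were called (background 0.967%). Without sham replicate 1, the 6 became 35 (background 8.7%).

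**Figure D1:**
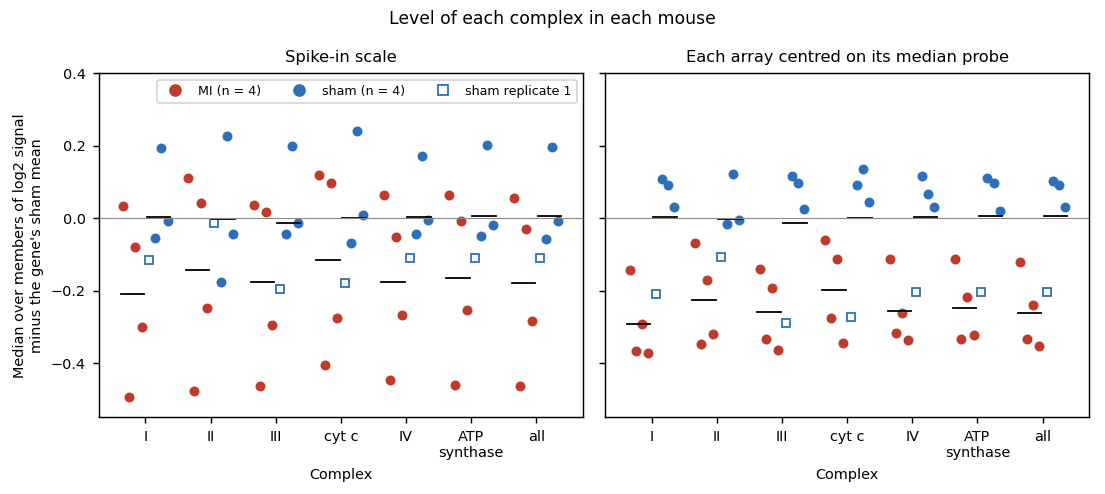
Median over the subunits of each complex of the log2 signal minus the gene's mean in sham-operated mice, for each of 4 MI mice (red) and 4 sham-operated mice (blue, sham replicate 1 as an open square), with lines for the group means. On the spike-in scale (left) the groups overlap in each complex, with MI replicate 2 at -0.46 over all members, and on the centred scale (right) sham replicate 1 lies among the MI mice.

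Of the 36 subunits of complex I, 33 had the lower mean in MI mice, with a median log2 fold change of -0.20 and the lowest at -0.35 (Ndufs4). None was called on the spike-in scale. After centring, 15 of the 36 were called lower, at the background of 7.58%, and 24 without sham replicate 1 (background 8.19%).

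The 15 were all accessory subunits, which surround the catalytic core and are needed for its assembly and stability. They were Ndufa1, Ndufa2, Ndufa3, Ndufa5, Ndufa6, Ndufa7, Ndufa8, Ndufa12, Ndufb3, Ndufb4, Ndufb10, Ndufb11, Ndufs4, Ndufs5 and Ndufv3. The 29 accessory subunits had a median log2 fold change of -0.24 on the spike-in scale and -0.32 after centring. The 7 nuclear-encoded core subunits (Ndufv1, Ndufv2 and Ndufs1 among them), which carry the flavin and iron-sulfur clusters, had medians of -0.10 and -0.18. None of these 7 was called on either scale, with or without sham replicate 1. On the spike-in scale, 24 of the 29 accessory subunits had a lower log2 fold change than the lowest of the core subunits, Ndufv2 with -0.14.

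This split was seen after the values were known, and it did not separate the mice. With each gene taken relative to its sham mean, the core median minus the accessory median was 0.16, 0.05, 0.22 and 0.15 in MI replicates 1 to 4. It was 0.21, -0.24, -0.03 and -0.0003 in sham replicates 1 to 4. The difference was therefore above 0 in all MI mice, but sham replicate 1 lay within their range and sham replicate 2 was far below the other mice.

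**Figure D2:**
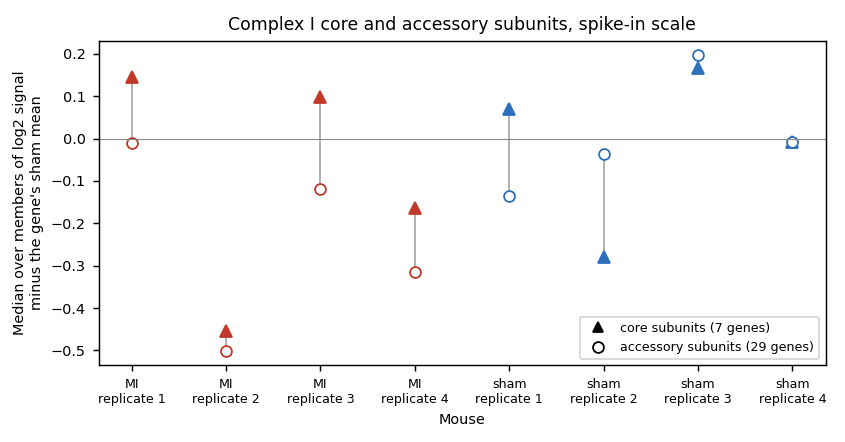
Complex I in each mouse on the spike-in scale: median over the 7 core subunits (triangles) and the 29 accessory subunits (open circles) of the log2 signal minus the gene's mean in sham-operated mice. The core lies above the accessory subunits in the 4 MI mice and in sham replicate 1.

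Ndufs4, an accessory subunit of the arm that oxidizes NADH, had the lowest log2 fold change of complex I. Its log2 signal was 15.87, 15.39, 15.72 and 15.65 in MI replicates 1 to 4 and 15.76, 16.07, 16.23 and 15.97 in sham replicates 1 to 4. The MI mice were lower except that MI replicate 1 lay above sham replicate 1. The log2 fold change was -0.35 ± 0.13 (SE, adjusted p = 0.219, exact permutation p = 0.0571). After centring it was -0.43 ± 0.11 (SE, adjusted p = 0.0261) and was called. That call held with 3 of the 8 mice left out in turn and was lost with the others.

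Ndufs1, the largest core subunit, carries iron-sulfur clusters. Its log2 signal was 16.32, 15.69, 16.30 and 15.94 in MI mice and 16.31, 15.82, 16.48 and 16.19 in sham-operated mice. The groups overlapped over most of their range, and the log2 fold change was -0.14 ± 0.18 (SE, adjusted p = 0.850) and -0.22 after centring (adjusted p = 0.189).

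In complex II all 4 subunits had the lower mean in MI mice, from -0.25 for Sdhb to -0.01 for Sdha, with a median of -0.15. None was called on the spike-in scale, and Sdhb alone was called after centring (background 7.58%), with 2 of the 4 without sham replicate 1 (background 8.19%). Sdhb carries the iron-sulfur clusters of the complex. The signal on the log2 scale was 17.75, 17.22, 17.72 and 17.45 in MI mice and 17.75, 17.65, 18.05 and 17.70 in sham-operated mice. The upper MI mice lay within the sham range, and the log2 fold change was -0.25 ± 0.14 (SE, adjusted p = 0.458). After centring, every MI mouse was below every sham-operated mouse, with a log2 fold change of -0.34 ± 0.08 (SE, adjusted p = 0.0197).

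Sdha, the flavoprotein that oxidizes succinate, also serves in the tricarboxylic acid cycle. The signal on the log2 scale was 15.60, 15.04, 15.62 and 15.38 in MI mice and 15.55, 15.09, 15.74 and 15.29 in sham-operated mice. Both groups covered a similar range, with a log2 fold change of -0.01 (95% confidence interval -0.40 to 0.39, adjusted p = 0.995). Of the membrane anchors, Sdhc had a log2 fold change of -0.11 and Sdhd of -0.20.

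In complex III, 8 of 9 subunits had the lower mean in MI mice, with a median of -0.23. The 5 small subunits (Uqcrq, Uqcr10, Uqcrb, Uqcrh and Uqcr11) ranged from -0.27 to -0.23. The 4 larger ones, the core proteins Uqcrc1 and Uqcrc2, the Rieske protein Uqcrfs1 and cytochrome c1 (Cyc1), ranged from -0.11 to 0.21. None was called on the spike-in scale. Of the 9, Uqcrq was called after centring (background 7.58%), and without sham replicate 1 all 5 small subunits and none of the 4 others were called (background 8.19%).

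Uqcrq, one of the small subunits, had a log2 signal of 18.30, 17.89, 18.24 and 18.05 in MI mice and 18.15, 18.40, 18.66 and 18.37 in sham-operated mice. The MI mice lay below the sham-operated mice except sham replicate 1. The log2 fold change was -0.27 ± 0.13 (SE, adjusted p = 0.355), and after centring it was -0.36 ± 0.11 (SE, adjusted p = 0.0466). That call held without sham replicate 1 and was lost with each of the other 7 mice left out in turn.

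Uqcrc1, one of the core proteins, had a log2 signal of 16.09, 15.40, 16.10 and 15.80 in MI mice and 15.86, 15.21, 15.73 and 15.73 in sham-operated mice. MI replicates 1 and 3 lay above all sham-operated mice and MI replicate 2 below all but sham replicate 2. The log2 fold change was 0.21 ± 0.19 (SE, adjusted p = 0.734) and 0.13 after centring (adjusted p = 0.516). The NRF1 core in its promoter, printed above, lies after the start of the gene.

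Cyc1 holds the heme that hands electrons to cytochrome c. The signal on the log2 scale was 17.48, 16.81, 17.47 and 17.09 in MI mice and 17.29, 16.91, 17.39 and 17.28 in sham-operated mice. MI mice were both highest and lowest, with a log2 fold change of -0.005 (95% confidence interval -0.39 to 0.38, adjusted p = 0.996). Cytochrome c itself (Cycs) is the soluble carrier between complexes III and IV and, once released from mitochondria, a trigger of apoptosis. Its log2 signal was 17.34, 16.81, 17.32 and 16.94 in MI mice and 17.04, 17.15, 17.46 and 17.23 in sham-operated mice. The groups overlapped, with a log2 fold change of -0.12 ± 0.14 (SE, adjusted p = 0.836) and -0.20 after centring (adjusted p = 0.250).

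**Figure D3:**
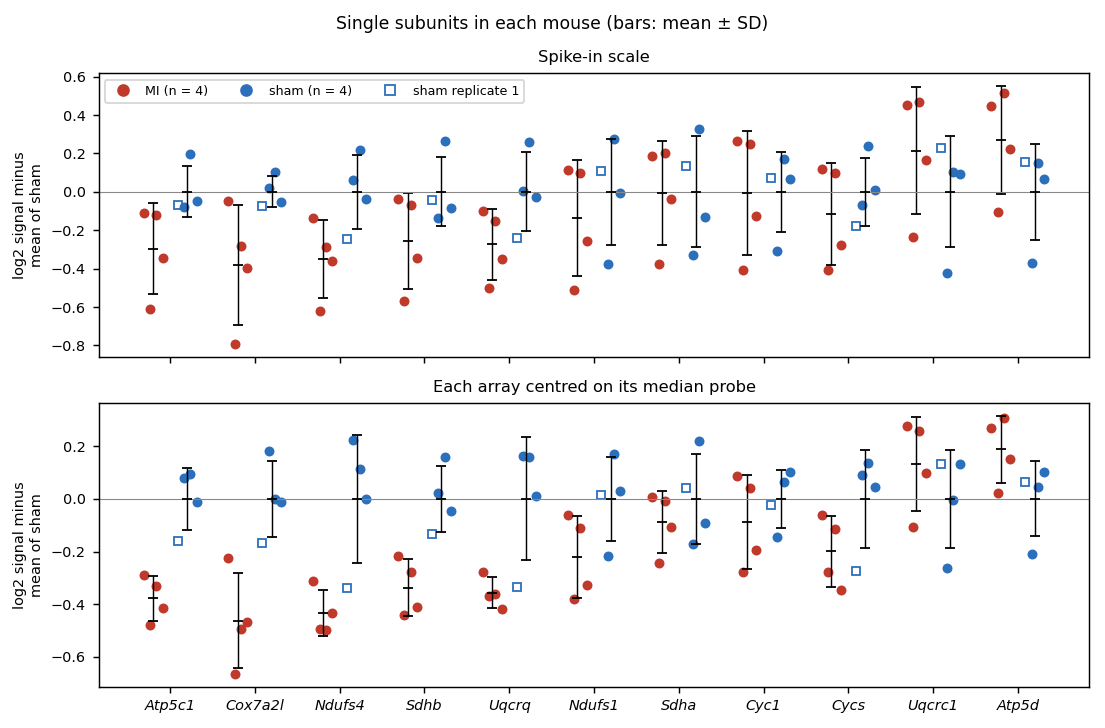
Log2 signal minus the sham mean of 11 subunits in each of 4 MI mice (red) and 4 sham-operated mice (blue, sham replicate 1 as an open square), with bars for mean ± SD, on the spike-in scale (top) and with each array centred on its median probe (bottom). For Atp5c1 every MI mouse lies below every sham-operated mouse on both scales, whereas the mice of both groups overlap for Ndufs1, Sdha, Cyc1, Uqcrc1 and Atp5d.

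In complex IV, which includes Ndufa4 and Ndufa4l2 here, 17 of 19 genes had the lower mean in MI mice, with a median of -0.16 and a range from -0.38 (Cox7a2l) to 0.19 (Cox4i2). None was called on the spike-in scale, 2 were called lower after centring (Cox7a2 and Cox7a2l, background 7.58%), and 11 without sham replicate 1 (background 8.19%). The call of Cox7a2 held with 2 of the 8 mice left out in turn. Cox7b2, of the testis isoforms, was well above background on 7 arrays, and the other 85 members on all 8.

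Cox7a2l had the lowest log2 fold change of all 86 genes. Its log2 signal was 16.07, 15.32, 15.83 and 15.72 in MI mice and 16.04, 16.14, 16.22 and 16.07 in sham-operated mice. MI replicate 1 lay among the sham-operated mice and the other MI mice below them. The log2 fold change was -0.38 ± 0.14 (SE, adjusted p = 0.237, exact permutation p = 0.0857). After centring, the groups did not overlap, with a log2 fold change of -0.46 ± 0.10 (SE, adjusted p = 0.0133).

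Several subunits of complex IV come as a heart and skeletal muscle isoform and an isoform found in most tissues, and ATP synthase has several genes for the same c-ring subunit. Within each mouse the log2 signal of one isoform minus that of the other is independent of the scaling of the array by a common factor. The 7 pairs were compared with exact two-sided permutation tests, and the smallest adjusted p was 0.467. The smallest p that 4 against 4 mice allow is 0.0286, so that a single pair cannot pass 0.05 after adjustment over 7. The values and the confidence intervals are therefore given as a description.

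Cox6a2, the muscle isoform, minus Cox6a1 was 1.74, 1.72, 1.90 and 1.83 in MI mice and 1.84, 1.99, 2.05 and 1.86 in sham-operated mice. The MI mice lay at the lower end, and the difference was -0.13 (95% confidence interval -0.30 to 0.03, exact permutation p = 0.114). The log2 fold change was -0.05 for Cox6a2 and 0.08 for Cox6a1.

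Cox7a1, the muscle isoform, minus Cox7a2 was 2.16, 2.33, 2.14 and 2.29 in MI mice and 2.02, 2.07, 2.30 and 2.27 in sham-operated mice. The difference was 0.06 (95% confidence interval -0.14 to 0.27, exact permutation p = 0.486), and both isoforms had lower means, with -0.25 and -0.31. Cox8b, the muscle isoform, minus Cox8a was 1.33, 1.44, 1.33 and 1.28 in MI mice and 1.25, 1.53, 1.36 and 1.44 in sham-operated mice. The groups again overlapped, with a difference of -0.05 (95% confidence interval -0.22 to 0.11, exact permutation p = 0.429).

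The largest pair difference was that of Cox4i1, the usual isoform of subunit 4, minus Cox4i2, which is known to be induced by hypoxia. It was 7.79, 7.89, 7.70 and 7.68 in MI mice and 7.61, 8.40, 8.30 and 8.16 in sham-operated mice. Sham replicate 1 was the lowest of the 8 mice and the other sham-operated mice were the highest. The difference was -0.36 (95% confidence interval -0.80 to 0.09, exact permutation p = 0.143). Without sham replicate 1, the only sham-operated mouse below the MI mice, it was -0.53 (exact permutation p = 0.0286 before adjustment over the 7 pairs). The groups no longer overlap once that mouse is left out. That p is then the smallest that the remaining mice allow, and no conclusion is drawn from it. Ndufa4 minus Ndufa4l2, a hypoxia-inducible relative, was 6.03, 6.25, 5.98 and 5.78 in MI mice and 5.63, 6.62, 6.23 and 6.17 in sham-operated mice, with a difference of -0.15 (95% confidence interval -0.70 to 0.40, exact permutation p = 0.543). Here too sham replicate 1 was the lowest mouse.

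For the c-ring of ATP synthase, Atp5g1 minus Atp5g3 was 0.19, 0.31, 0.18 and 0.36 in MI mice and 0.18, 0.07, 0.19 and 0.23 in sham-operated mice. The difference was 0.09 (95% confidence interval -0.05 to 0.23, exact permutation p = 0.200). Atp5g2 minus Atp5g3 was -1.11, -0.83, -1.15 and -0.77 in MI mice and -0.90, -1.07, -0.78 and -0.78 in sham-operated mice, with a difference of -0.08 (95% confidence interval -0.37 to 0.20, exact permutation p = 0.486). The groups overlapped for both pairs.

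**Figure D4:**
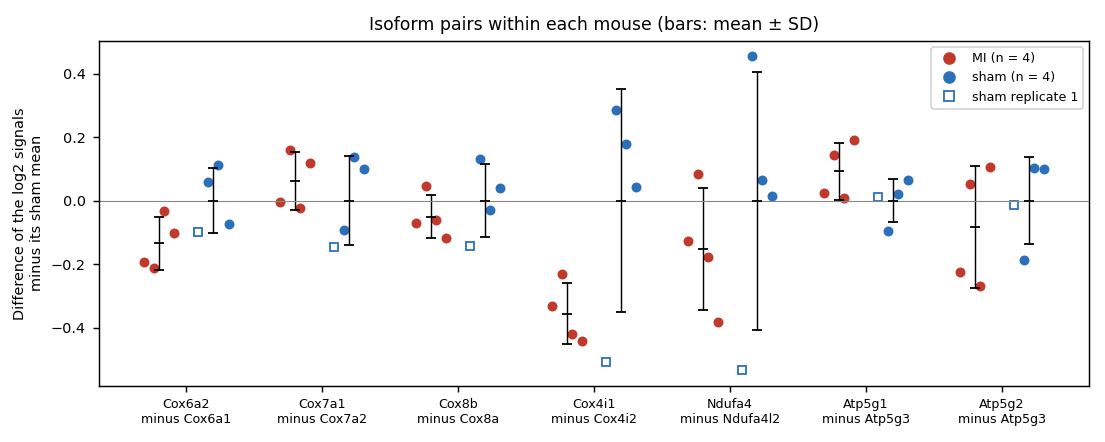
Log2 signal of one isoform minus that of the other in each of 4 MI mice (red) and 4 sham-operated mice (blue, sham replicate 1 as an open square), with the sham mean of each pair set to 0 and bars for mean ± SD. The groups overlap for all 7 pairs, and sham replicate 1 lies lowest for Cox4i1 minus Cox4i2 and for Ndufa4 minus Ndufa4l2.

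In ATP synthase, 15 of 17 genes had the lower mean in MI mice, with a median of -0.17. None was called on the spike-in scale, Atp5c1 was the 1 gene of 17 called lower after centring (background 7.58%), and 11 genes were called without sham replicate 1 (background 8.19%). The 5 small membrane subunits ranged from -0.25 to -0.16 and the 4 stalk subunits from -0.28 (Atp5h) to -0.07 (Atp5pb). The 5 subunits of the catalytic F1 head had the widest range, from -0.30 (Atp5c1) to 0.27 (Atp5d). The main catalytic subunit Atp5b had -0.10 and its partner Atp5a1 had 0.02.

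Atp5c1, the gamma subunit that turns inside the F1 head, had a log2 signal of 16.04, 15.54, 16.03 and 15.81 in MI mice and 16.08, 16.07, 16.35 and 16.10 in sham-operated mice. Every MI mouse was below every sham-operated mouse, by a small margin for MI replicates 1 and 3. The log2 fold change was -0.30 ± 0.12 (SE, adjusted p = 0.295, exact permutation p = 0.0286), which is 81.5% of the sham level. After centring it was -0.38 ± 0.08 (SE, adjusted p = 0.00861), the smallest adjusted p of the 86 genes.

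Atp5d, the delta subunit of the F1 head, had the highest log2 fold change of the 86 genes. Its log2 signal was 16.11, 15.55, 16.18 and 15.88 in MI mice and 15.82, 15.29, 15.81 and 15.72 in sham-operated mice. All MI mice but MI replicate 2 were above all sham-operated mice, and the log2 fold change was 0.27 ± 0.17 (SE, adjusted p = 0.532) and 0.19 after centring (adjusted p = 0.212).

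**Figure D5:**
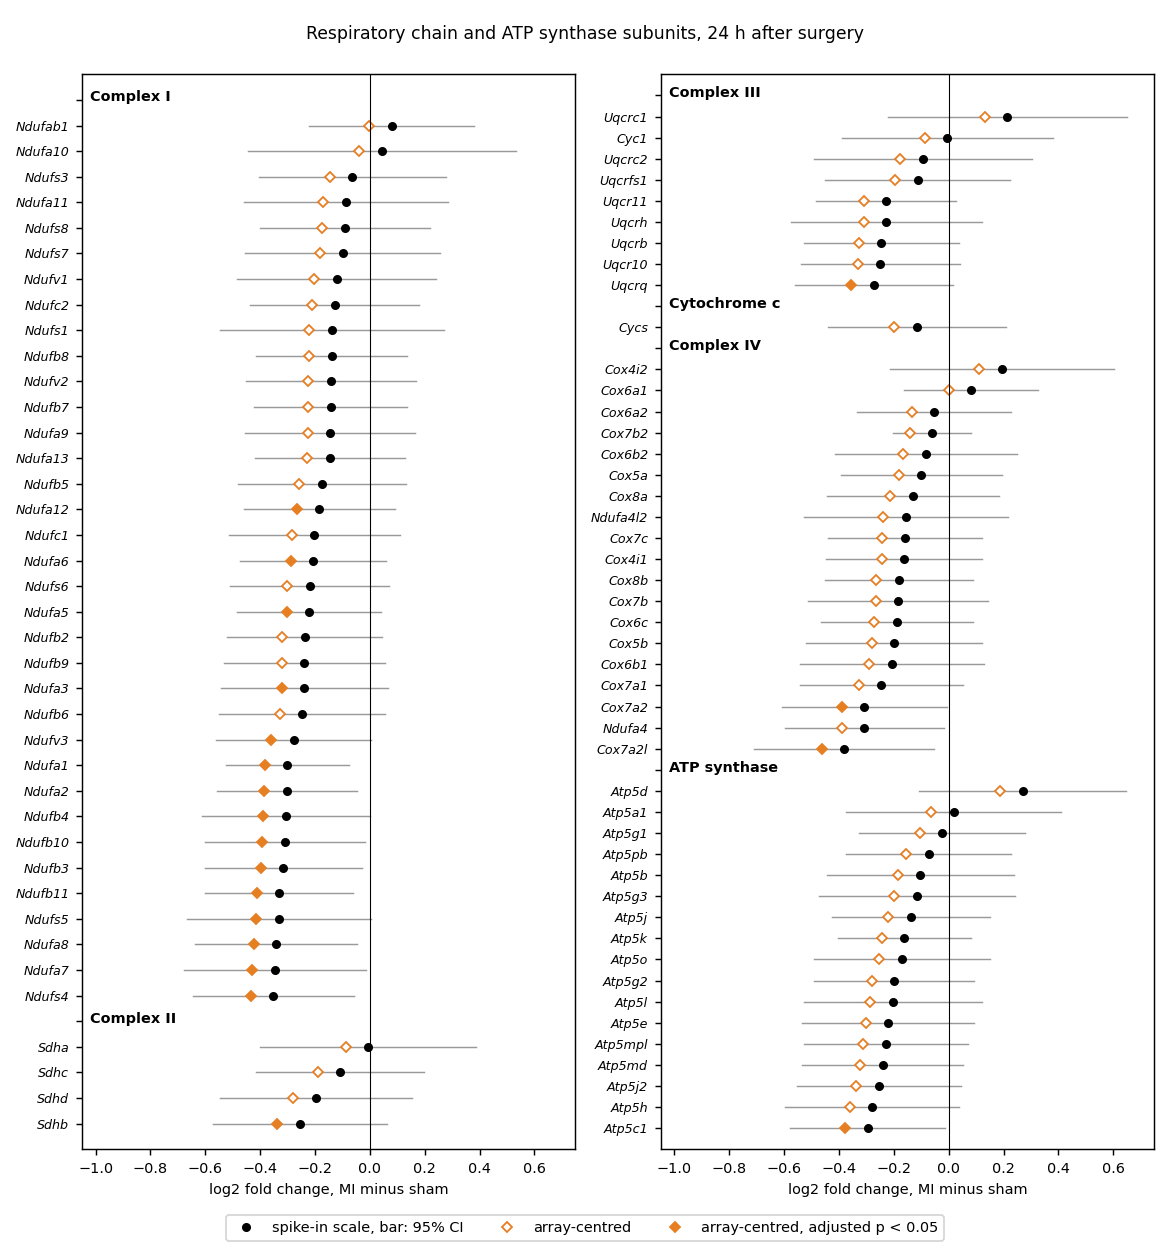
Log2 fold change (MI minus sham) of 85 of the 86 genes by complex on the spike-in scale (black, with 95% confidence intervals) and with each array centred on its median probe (orange, filled for the 20 with an adjusted p under 0.05 in limma). Most points lie to the left of 0, from -0.38 (Cox7a2l) to 0.27 (Atp5d) on the spike-in scale.

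Several probes were retained for 23 of the 86 genes. For 21 of these, all probes had the lower mean in MI mice. The exceptions were dim second probes of Ndufb11 (log2 fold change 0.18) and Ndufv3 (0.07), whose brightest probes had -0.33 and -0.28. For 11 genes, Atp5c1, Ndufs5 and Cycs among them, the RefSeq gene table lists a pseudogene with the same root symbol, and signal from such copies cannot be told apart here.

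Other genes of the pathway had list medians between -0.18 and -0.05, and some of them had lower log2 fold changes than any subunit. Of 47 assembly factors, which build the complexes without being part of them, 45 were measured, with a median log2 fold change of -0.18. None was called on the spike-in scale, and 16 were called lower and 2 higher (Cox10 and Cox18) after centring, at a background of 7.58% of probes lower and 7.3% higher. Sdhaf4, for complex II, had the largest change, with -0.65 ± 0.17 (SE, adjusted p = 0.0769) and -0.74 after centring (adjusted p = 0.00363), and Ttc19, for complex III, had -0.57 ± 0.14 (SE, adjusted p = 0.0625) and -0.66 (adjusted p = 0.00123).

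The 16 regulators of mitochondrial gene expression had a median of -0.11, with 0 called on the spike-in scale and 2 lower and 1 higher after centring, at the same background. Tfb1m, which methylates mitochondrial ribosomal RNA, had a log2 fold change of -0.91 ± 0.21 (SE, adjusted p = 0.0537 in limma). Gabpb1, a subunit of GABP, had 0.45 (adjusted p = 0.275 in limma). The 18 genes of the tricarboxylic acid cycle and pyruvate dehydrogenase had a median of -0.08, with Fh1 at -0.35 and Idh2 at -0.19, and the 13 genes of coenzyme Q synthesis had -0.05, with Coq10b at 0.43 and Coq8a at -0.36. None of these was called on the spike-in scale. After centring, 2 genes of the cycle were called lower, and 2 genes of coenzyme Q synthesis lower and 1 higher, at 7.58% of probes lower and 7.3% higher.

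Markers of the cells that the ventricle holds were read beside these values. Of 12 cardiomyocyte markers, 10 had the lower mean in MI mice, with a median log2 fold change of -0.06. None was called on the spike-in scale. Pln had -0.55 and Actn2 had 0.51. After centring, Pln was called lower (adjusted p = 0.00665 in limma) and Actn2 higher (adjusted p = 0.0386), at 7.58% of probes lower and 7.3% higher. The log2 of the summed signal of the 12 markers was 21.35 to 21.93 in MI mice and 21.48 to 21.95 in sham-operated mice. Of 9 measured neutrophil markers, 6 were called higher (3.38% of all probes were), with a median of 1.32 and Retnlg (3.92) and S100a8 (2.99) highest. Their summed signal was 17.66 to 18.28 in MI mice and 15.98 to 16.28 in sham-operated mice.

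The single leukocyte marker Ptprc was called higher (0.55), at a background of 3.38% of all probes. Of 9 measured monocyte and macrophage markers, 2 were called higher, Cd14 (2.08) and Ccr2 (0.59), at the same background. The median of the 9 was 0.15, and 3 had the lower mean in MI mice (Adgre1 -0.17, Csf1r -0.15 and C1qa -0.03). The summed signal was 15.41 to 15.98 in MI mice and 15.24 to 16.02 in sham-operated mice. Of 6 smooth muscle and pericyte markers, 1 was called higher (Acta2, 1.45), at the same background, and 4 had the lower mean in MI mice (Rgs5 -0.32, Myh11 -0.13). The median of the 6 was -0.04, with summed signals of 15.00 to 15.70 and 14.54 to 14.92. Rgs5 was called lower after centring (adjusted p = 0.0406 in limma), at a background of 7.58%. The 8 fibroblast markers had 0 calls and a median of -0.39 (from Col3a1 with -0.71 to Postn with 0.51, which was called higher after centring, adjusted p = 0.0190), at 15.58 to 16.84 and 16.50 to 17.14. The 8 endothelial markers had 0 calls on the spike-in scale and a median of 0.20 (from Kdr with -0.15 to Pecam1 with 0.53). Their summed signals were 15.70 to 16.15 and 15.86 to 16.16. After centring, Pecam1 (adjusted p = 0.0369 in limma) and Emcn (adjusted p = 0.0233) were called higher, at a background of 7.3%. Ly6g and Cd68 had no retained probe with a symbol here. For Cd68, the paper reports up-regulation in MI mice from its own reading of these arrays. The part of these cells in the values of the subunits was not tested.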

How the data were processed

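The deposited scanner output of Feature Extraction 11.0.1.1 gives processed intensities, background-subtracted and detrended within each array per the file headers. The authors' own log2 values, normalized with spike-in probes and limma, were used as an alternative. Here, a vsn model (asinh with a scale and an additive constant per array, 166 to 257) was fitted to 234 spots of 7 spike-in probes and tested on simulated data. Outlier spots were dropped and replicate spots averaged, and 34038 probes well above background on at least 4 of 8 arrays retained. MI and sham-operated mice were compared in limma 3.58.1 (R 4.3.3) with Benjamini-Hochberg adjustment over all retained probes. Isoform pairs were compared with exact permutation tests. Python 3.11.15 was used otherwise. The 8 arrays lay on 1 slide, with 2 mice of each group in each of 2 rows. Groups and replicates are those of the labels, which do not say more of the mice, and the number of arrays limits the precision. Symbols came from RefSeq accessions (26582 probes). Median spot and background intensities as deposited served a normexp alternative.

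The genes given with values in every mouse are Ndufs1, Sdha, Uqcrc1, Cyc1, Cycs, the isoform pairs and, in each complex, up to 3 called genes per direction or else the gene with the largest change. 1 of the 86 genes is counted in the totals and not reported by name here. The alternatives were other scalings, background corrections, detection filters, probe means, blocks, tests and mice left out. Those that combined centring or 75th percentile scaling with a mouse left out, or centring with a block, were added after seeing the data. Members and lists were chosen with earlier results of these data known.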

Additional observations from a re-analysis of the deposited data

Results flagged for a closer look

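A value was looked at again where 1 of the 4 mice of a group lay far from the other 3, by Dixon's criterion, which chance meets in about 1 in 20 groups. Of 54 groups of values examined, 3 met it. The share of spots well above background was 65.8% in sham replicate 1 and 58.6% to 59.1% in the other sham-operated mice. It was 61.4% to 66.4% in the MI mice. The log2 signal of Atp5c1 was 16.35 in sham replicate 3 and 16.07 to 16.10 in the other sham-operated mice. The log2 signal of Atp5g3 was 18.38 in sham replicate 3 and 18.09 to 18.12 in the others.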

How the results depend on the processing

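The median log2 fold change of the 86 genes was below 0 under every alternative. It lay between -0.40 and -0.09 with mice left out, the lowest with 75th percentile scaling and without sham replicate 1, the highest on the spike-in scale without MI replicate 2. The number of genes called lower was 0 with the spike-in model, the spike-in shift, the authors' normalized values, other detection filters, probe means, array rows as a block, significance analysis of microarrays and an unmoderated test. It was 6 with 75th percentile scaling (6.98% of the genes, 8.84% of all probes), 11 with quantile normalization, 14 with normexp and 20 after centring. All 6 were among the 20. These scalings moved the median of all probes from 0.11 (spike-in shift) to -0.12 (normexp). With each mouse left out, the number ranged from 0 to 54 over the 3 scalings examined so. It was 0 throughout on the spike-in scale, with 7 to 203 of all 34038 probes called lower. After centring it was 23, 5, 7 and 11 without MI replicates 1 to 4, with 2352, 1762, 1254 and 2669 probes. Without sham replicates 1 to 4 it was 54, 7, 4 and 8, with 2789, 1978, 1563 and 1687 probes. With the 75th percentile it was 0 to 35, with 1450 to 3045 probes. There it was 2 or less without any mouse other than sham replicate 1. With the replicate block, 0 genes were called lower and 1 higher (Atp5d, adjusted p = 0.0256 in limma), and all probes called were 4070 higher and 865 lower. After centring, 3 members were called lower with that block, and 2462 of all 34038 probes. The labels do not say whether the numbers pair the mice. Same-numbered deviations correlated at 0.28, 0.36, 0.09 and 0.001 and 3 of 8 mice matched their own number best, which does not settle it. Replicates 1 and 2 of each group lay in array row 1, and replicates 3 and 4 in row 2. Of the 24 genes given by mouse, 5 changed sign near 0: Atp5g1 with quantile normalization (0.036) and with mice left out (-0.10 to 0.075), Cox6a1 with the 75th percentile (-0.051), normexp (-0.016) and centring (-0.00034), and with mice left out Cox6a2 (-0.12 to 0.035), Cyc1 (-0.11 to 0.13) and Sdha (-0.12 to 0.12). Among the isoform pairs, whose adjusted test cannot call a single pair with these mice, Cox8b minus Cox8a (0.060, quantile normalization) and Ndufa4 minus Ndufa4l2 (-0.33 to 0.00025, mice left out) changed sign. The cause was not tested.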
